A study of Homo sapiens with 3 samples.

Results

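The tropomyosin genes TPM1, TPM2, TPM3 and TPM4 and the caldesmon gene CALD1 were followed through 2 deposited tables of exon-skipping events. They were chosen by gene symbol, and all 5 were listed, out of 11271 gene identifiers in the tables. The tables compare bulk RNA libraries of BJ cells, an established human fibroblast line, on day 8 after viral expression of OSKM was induced, the transcription factors OCT4, SOX2, KLF4 and MYC used for reprogramming. Of the 3 libraries, 1 received SMAD3 siRNA, 1 received SFRS11 siRNA (SFRS11 is now called SRSF11) and 1 received non-targeting siRNA. The genotype label of the non-targeting library is WT. The OSKM factors and the cell line are shared by all 3, and no group has a replicate. One table sets a library coded RS2 against another library, called the comparator here, and the other table sets RS3 against a comparator of the same code. No label ties RS2, RS3 or the comparator to a siRNA, so nothing is said of a knockdown.

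Tropomyosins are coiled-coil proteins that lie end to end along actin filaments and govern how myosin motors and filament-severing proteins reach them. Each gene makes several isoforms, through alternative promoters, through pairs of internal exons of which a transcript normally takes one, and through alternative last exons. Isoform switches of tropomyosins are known from muscle development and from transformed fibroblasts. Caldesmon binds actin, tropomyosin and myosin and holds back actomyosin activity. Smooth muscle makes a heavy form of it, and fibroblasts make light forms.

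The exons that carry the results are shown first. TPM1, on the plus strand of chromosome 15, has 2 exon pairs of equal length in the tables. The pair nearer the 5′ end has 126 bases each, and the exons start 321 bases apart in hg19. The other pair has 76 bases each and starts 515 bases apart. The sequences are in sense orientation from GENCODE release 29 transcripts (GRCh38), matched to the deposited exons by length and by the distances between exons of the same gene. Capitals mark the positions at which an exon differs from its partner.
TPM1 upstream 126-base exon, chr15:63335905-63336030 (hg19): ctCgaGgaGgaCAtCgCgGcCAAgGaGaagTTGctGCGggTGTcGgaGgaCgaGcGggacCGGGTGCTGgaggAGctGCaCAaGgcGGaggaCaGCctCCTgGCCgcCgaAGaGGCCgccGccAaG
TPM1 downstream 126-base exon, chr15:63336226-63336351 (hg19): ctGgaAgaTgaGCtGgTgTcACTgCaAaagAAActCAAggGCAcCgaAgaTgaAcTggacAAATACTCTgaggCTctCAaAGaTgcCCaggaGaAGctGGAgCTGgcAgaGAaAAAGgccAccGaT
TPM1 upstream 76-base exon, chr15:63353397-63353472 (hg19): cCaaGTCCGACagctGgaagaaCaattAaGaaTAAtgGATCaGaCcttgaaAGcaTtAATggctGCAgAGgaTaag
TPM1 downstream 76-base exon, chr15:63353912-63353987 (hg19): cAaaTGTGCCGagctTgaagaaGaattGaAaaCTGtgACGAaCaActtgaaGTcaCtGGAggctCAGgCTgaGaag

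The TPM1 76-base exons share 43 bases (56.6%) and differ at 33. Of 34 annotated TPM1 transcripts, 12 hold the upstream exon, 13 hold the downstream exon and 3 hold both, of which 0 are annotated as protein coding. The 126-base exons share 62 bases (49.2%), with a GC content of 69.8% upstream and 50.8% downstream. They are held by 4 and 7 transcripts, and 1 transcript, annotated as protein coding, holds both. All 4 exons are wholly coding in every protein-coding transcript that holds them. A length of 76 is no multiple of 3, so an exchange of the 76-base exons keeps the reading frame, while loss or gain of either exon alone shifts it. A single 126-base exon keeps the frame.

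TPM2, on the minus strand of chromosome 9, has a 76-base pair of the same kind. It is shown because all its rows gave differences near 0, while each TPM1 76-base exon had an RS3 row that did not. Capitals mark differences from the TPM1 exon in the same place.
TPM2 upstream 76-base exon, chr9:35685061-35685136 (hg19): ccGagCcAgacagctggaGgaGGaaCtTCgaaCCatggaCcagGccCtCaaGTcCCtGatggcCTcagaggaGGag
TPM2 downstream 76-base exon, chr9:35684729-35684804 (hg19): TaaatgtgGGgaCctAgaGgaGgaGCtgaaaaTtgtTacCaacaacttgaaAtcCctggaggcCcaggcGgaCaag
The CALD1 exon with the smallest deposited p-value of that gene has 78 bases, lies on the plus strand of chromosome 7 and is wholly coding in the 4 of 24 annotated transcripts that hold it.
CALD1 78-base exon, chr7:134620439-134620516 (hg19): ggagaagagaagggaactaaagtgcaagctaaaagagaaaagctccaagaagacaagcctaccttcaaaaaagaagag

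The 5 genes had 32 events in 23 exons in the RS2 table and 41 events in 31 exons in the RS3 table. Each event carries a difference in inclusion level, the share of transcripts over the region that keep the exon, read here as RS2 or RS3 minus the comparator. All 23 exons of the RS2 table were also in the RS3 table, and 8 exons were listed for RS3 alone. An exon is listed in several rows when more than 1 splicing context was tested, which was so for 8 exons in RS2 and 10 in RS3. A call needed a deposited FDR under 0.05 together with an absolute difference of at least 0.1. The FDR compares the reads of 2 libraries, so it says nothing of how samples of one treatment vary.

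Of the 41 RS3 events, 1 was called, against 0.967% of all RS3 events, and of the 32 RS2 events 0 were called, against 0.0712% of all RS2 events. The called event was the downstream 76-base exon of TPM1, whose inclusion was higher in RS3, as was so for 0.23% of all RS3 events. With the FDR limit alone, 5 of the 41 RS3 events passed, against 1.64% of all RS3 events. Of these 5, 3 were higher, against 0.456% of all RS3 events, and 2 were lower, against 1.19%. Of the 5, 4 were in the TPM1 exon pairs and 1 was in the 78-base exon of CALD1. Reads of one exon of a pair can also bear on its partner, so these 4 are not independent measurements. In RS2 the FDR limit alone was passed by 1 of 32 events, against 0.165% of all RS2 events, and it was the upstream 76-base exon of TPM1. An unadjusted p-value under 0.05 was listed for 8 of the 41 RS3 events and for 2 of the 32 RS2 events, against 7.61% and 4.52% of all events. RNA was taken from whole cultures, so a shift in the mix of cells and a shift in exon choice within cells cannot be told apart, nor can fewer cells of a type and less RNA per cell.

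**Figure D1:**
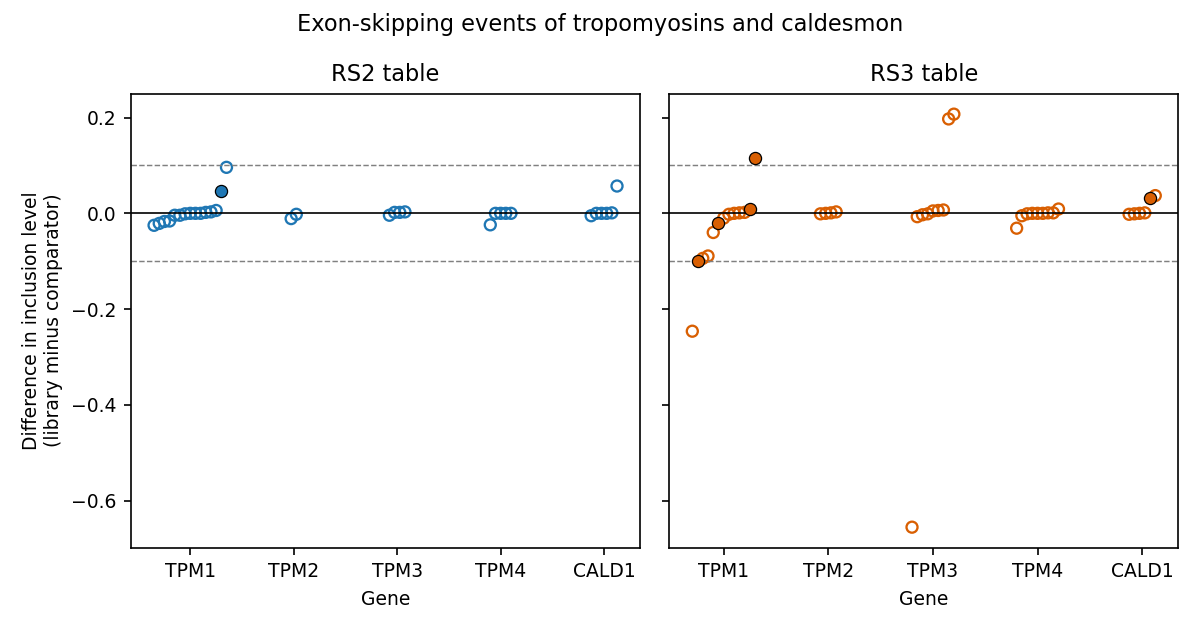
Difference in inclusion level (vertical axis, library minus the comparator, no unit) of every exon-skipping event of the 5 genes (horizontal axis) in the RS2 and RS3 tables; filled points have an FDR under 0.05, dashed lines mark 0.1 and -0.1, and points are spread sideways only to be seen. Filled points lie in TPM1 and CALD1 alone, and the lowest point, TPM3 in RS3 at -0.655, is open.

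The differences of the TPM1 76-base pair had opposite signs in RS3. In the authors' deposited table, inclusion of the downstream exon was higher by 0.115 in RS3, with a p-value and an FDR listed as 0. Inclusion of the upstream exon differed by -0.099 in RS3, also at a listed FDR of 0, in the authors' deposited table. The second value lies just under the size limit and was not called. Reads that join one exon of a pair to the flanks also bear on its partner, so these 2 rows are not independent measurements. Each exon had another RS3 row, at 0.002 downstream and 0.001 upstream in the authors' deposited table, both with an FDR of 1. The difference thus sat in 1 of the 2 rows of each exon. The flanking exons that set the rows apart were not used here.

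In RS2 the upstream 76-base exon lay on the other side of the comparator from RS3, in the row that passed the FDR limit. The authors' deposited table has the upstream exon higher by 0.047 in RS2 (p = 2.35e-05, FDR 0.0184), which is under the size limit. The downstream exon had 3 RS2 rows in the authors' deposited table, at -0.021 (p = 0.0245, FDR 0.964), 0.003 (FDR 1) and 0.096 (p = 0.437, FDR 1). The row with the smallest p-value was negative and the largest was positive, so the downstream exon gave no single direction in RS2. The difference between RS3 and RS2 was not tested.

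The 126-base pair of TPM1 had no called event in either table. In RS3 the upstream exon had rows at 0.010 (FDR 0.000973) and -0.040 (FDR 0.247) in the authors' deposited table, of opposite sign. The downstream exon had RS3 rows at -0.021 (FDR 0.0272) and -0.002 (FDR 1) in the authors' deposited table. In RS2 the authors' deposited table put both upstream rows at -0.004, each at an FDR of 1. The downstream rows were 0.006 and 0 for RS2 in the authors' deposited table, also with an FDR of 1. All of these values are under the 0.1 needed for a call in size. Of the RS3 rows 2 passed the FDR limit, and the row of largest size (-0.040 in the authors' deposited table) did not.

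Longer forms that overlap this region were also listed. A 363-base form that ends with the upstream 126-base exon had values of -0.246 in RS3 (p = 0.00851, FDR 0.256) and -0.017 in RS2 (FDR 1), both from the authors' deposited table. It had the largest RS3 difference of TPM1 but did not pass the FDR limit, and 1 annotated transcript, not protein coding, holds it. A 447-base form that runs from the start of the upstream to the end of the downstream 126-base exon had values of -0.010 in RS3 (FDR 0.508) and 0 in RS2, both from the authors' deposited table.

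At the 3′ side of TPM1, an exon of 63 bases held by 22 of 34 annotated transcripts gave differences of 0 in RS3 and of -0.001 and 0 in RS2 in the authors' deposited table. Of 2 exon forms that share a start further downstream, the 79-base form differed by -0.089 in RS3 and -0.016 in RS2 in the authors' deposited table. The 127-base form differed by -0.094 in RS3 and -0.025 in RS2 in the authors' deposited table. All 4 of these values had an FDR of 1. The 79-base form is wholly coding in the 3 protein-coding transcripts that hold it, and the 127-base form is partly coding in 2.

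**Figure D2:**
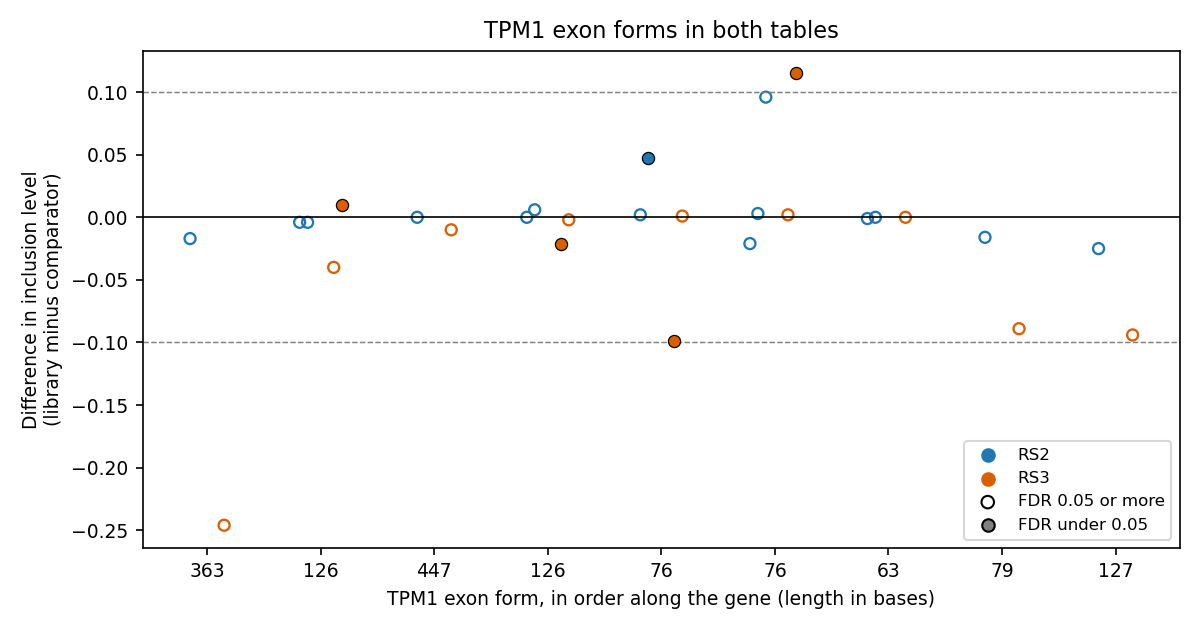
Difference in inclusion level (vertical axis, library minus the comparator) of each TPM1 row in RS2 and RS3, with the 9 exon forms in order along the gene and named by their length in bases (horizontal axis). The 76-base pair shows RS3 at -0.099 upstream and 0.115 downstream, while RS2 has its filled point at 0.047 upstream.

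TPM2 encodes beta-tropomyosin, which fibroblasts make together with TPM1 products. Its 76-base pair, built like that of TPM1, stayed near 0. The TPM1 exons also had RS3 rows near 0 (0.001 upstream and 0.002 downstream). Whether the TPM2 rows match these in splicing context was not tested. In the authors' deposited table, the upstream exon differed by 0.001 in RS3 and -0.002 in RS2, and the downstream exon by 0.003 in RS3 and -0.011 in RS2. The smallest of these p-values was 0.108, that of the downstream exon in RS2 in the authors' deposited table. Of 12 annotated TPM2 transcripts, 3 hold the upstream exon, 5 the downstream exon and 0 both. The TPM2 exons of 63 and 70 bases, listed for RS3 alone, differed by 0 and -0.001 in the authors' deposited table. No read count stands beside these values, so how small a change of TPM2 could have been seen is unknown.

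TPM3 makes cytoplasmic isoforms in most cells and a slow muscle form. It had the widest spread of the 5 genes in RS3 and 0 events that passed the FDR limit. The downstream 76-base exon (chromosome 1, 154143889 to 154143964, minus strand) was listed in the authors' deposited table at -0.655 for RS3, p = 0.519 and FDR 1. It was listed for RS3 alone. Its upstream partner, also listed for RS3 alone, differed by -0.003 in the authors' deposited table. The read counts behind the larger value are unknown.

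A further TPM3 exon, of which forms of 62, 65 and 134 bases share one end, gave 2 larger RS3 values. The 62-base form, for which the annotation had no match, had rows at 0.207 and 0.006 in RS3 and the 65-base form had rows at 0.197 and 0.007 in RS3 in the authors' deposited table. None of these had an FDR under 1, and in RS2 the forms stood at 0.002 and 0.003 in the authors' deposited table. The 134-base form, held by 12 of 23 annotated transcripts, had RS3 rows at -0.001 and 0.005 and an RS2 row at 0.002 in the authors' deposited table. An exon of 79 bases differed by -0.007 in RS3 and -0.004 in RS2 in the authors' deposited table. The gene name table holds 9 symbols of TPM3 pseudogenes, 3 of TPM4 pseudogenes and 1 of a TPM2 pseudogene, and the sources used here do not say how reads that match such copies were treated.

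TPM4 makes a short tropomyosin of non-muscle cells. Its 9 RS3 events lay between -0.031 and 0.009 and its 5 RS2 events between -0.024 and 0 in the authors' deposited table, all with an FDR of 1. The lowest value in both belonged to an exon of 161 bases (chromosome 19, 16191725 to 16191885) that 1 of 24 annotated transcripts holds. TPM4 has a single listed 76-base exon, which differed by 0.009 in RS3 (p = 0.928) in the authors' deposited table and was not listed for RS2.

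The 76-base exons fell into groups by sequence. Those in the downstream place of TPM1, TPM2 and TPM3 shared 76.3% to 78.9% of their bases with each other, and the TPM4 exon shared 72.4% to 73.7% with these. The upstream exons of the 3 genes shared 64.5% to 68.4% with each other. Between the upstream exons and the group of downstream and TPM4 exons, identity was 44.7% to 56.6%, including the 52.6% within the TPM2 and within the TPM3 pair. Exons of 76 bases made up 7 of the 31 exons of the 5 genes, against 222 of 39434 exons in both tables together. Lengths that are multiples of 3 were 35.5% of the 31 exons, against 41.1% of all exons, and the median length was 76 bases, against 120.

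**Figure D3:**
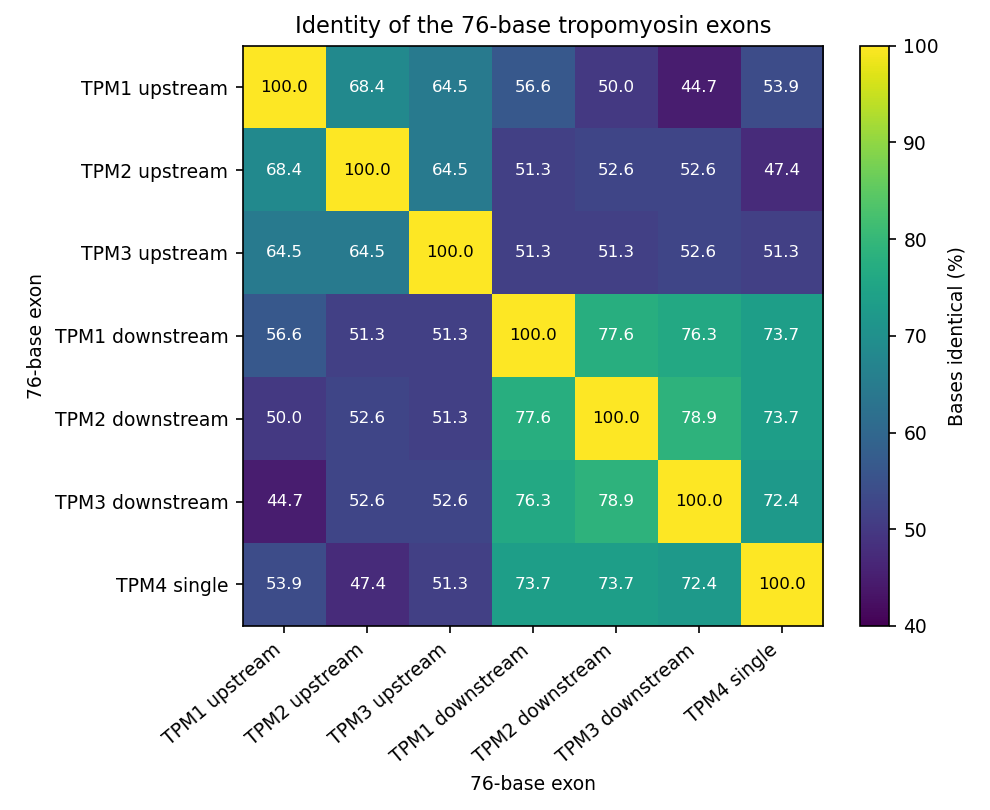
Share of identical bases (colour and printed number, in percent) between each pair of the 7 tropomyosin exons of 76 bases, compared position by position with no gaps. The downstream exons of TPM1, TPM2 and TPM3 with the TPM4 exon form one block at 72.4% or more, and the upstream exons another at 64.5% or more.

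CALD1 had 6 events in 5 exons in each table. In the authors' deposited table, the 78-base exon differed by 0.031 in RS3 (p = 2.7e-07, FDR 6.38e-05), which passed the FDR limit but not the size limit. The authors' deposited table put its other RS3 row at 0.037 (p = 0.571, FDR 1). The RS2 rows of this exon in the authors' deposited table were -0.005 (p = 0.345) and 0.057 (p = 0.486), of opposite sign, with an FDR of 1 each. The rows thus went one way in RS3 and both ways in RS2. The other 4 exons, of 42, 96, 115 and 147 bases, differed by -0.002 to 0.001 in RS3 and by 0 to 0.001 in RS2 in the authors' deposited table.

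Across each table, events of the 5 genes were more often near 0 than events of all genes, as a description with no test. The median absolute difference was 0.005 in RS3 and 0.0025 in RS2, against 0.020 and 0.018 over all events. Low medians were not particular to the 5 genes. The actin filament partners described below had 0.002 in RS3 and 0.001 in RS2, and the splicing regulators 0.01 and 0.007. Differences of at most 0.01 made up 68.3% of the RS3 and 71.9% of the RS2 events of the 5 genes, against 37.5% and 39.5% of all events. A p-value of exactly 1 was listed for 61.0% of the RS3 and 59.4% of the RS2 events of the 5 genes, against 25.6% and 26.3% of all events. An absolute difference of at least 0.1 was listed for 12.2% of the RS3 events and 0 of the RS2 events of the 5 genes, against 21.2% and 19.2% of all events. Such shares also move with read depth, which is unknown, and its part in the result was not tested.

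**Figure D4:**
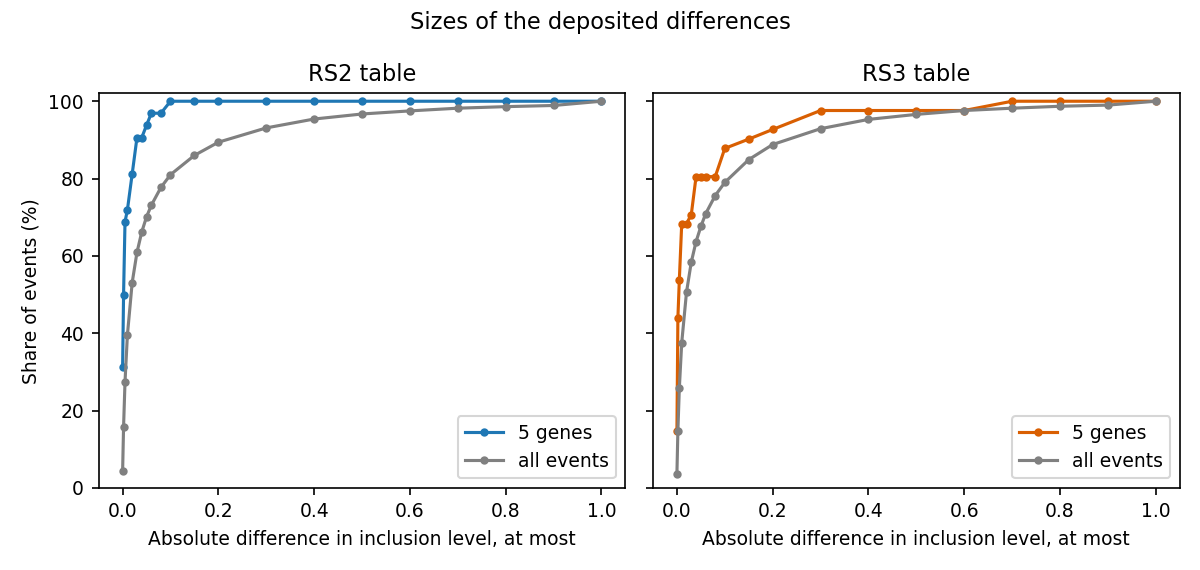
Cumulative share of events (vertical axis, percent) with an absolute difference in inclusion level up to the value on the horizontal axis, for the 5 genes (coloured) and for all events (grey) in the RS2 and RS3 tables. At 0.01 the coloured curves stand at 71.9% in RS2 and 68.3% in RS3, and the grey curves at 39.5% and 37.5%.

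Other proteins of the actin filament were set beside these genes. Of 47 listed partners of tropomyosin on the filament, 38 had a tested event in each table. By event, 6 of their 252 were called in RS3, against 0.967% of all RS3 events. In RS2, 3 of their 253 events were called, against 0.0712% of all RS2 events. The gene shares below were not adjusted for the number of events per gene. In RS3, 4 of the 38 had a called event, 1 with higher and 3 with lower inclusion, against 3.05% of all genes. In the authors' deposited table the lower ones in RS3 were ACTN1, the actin cross-linker alpha-actinin (-0.363), SVIL, the membrane-linked actin binder supervillin (-0.186, FDR 0.0285), and MYLK, the myosin light chain kinase (-0.166, FDR 0.00063). The ACTN1 and SVIL exons had other RS3 rows at -0.043 and -0.017 in the authors' deposited table. In RS2, 2 of the 38 partners had a called event, 1 higher and 1 lower, against 0.238% of all genes. The lower one was ACTN1 (-0.128), whose exon had another RS2 row at -0.027, both in the authors' deposited table. The median absolute difference of the partners' events was 0.002 in RS3 and 0.001 in RS2, against 0.02 and 0.018 over all events.

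Splicing regulators that act or may act on tropomyosin exons were counted as well. Of 23 listed, 20 had a tested event in each table. In RS3, 2 of the 20 had a called event, both lower, against 3.05% of all genes, and in RS2 0 of the 20 had one, against 0.238% of all genes. They were the muscleblind genes MBNL1 (-0.199) and MBNL2 (-0.200) in the authors' deposited table. PTBP1, the polypyrimidine tract binding protein that represses tropomyosin exons in other systems, was among those without a called event. The tables hold inclusion levels and no gene expression, so neither the amount of any regulator nor of any tropomyosin RNA was measured here. All 8 listed fibroblast markers had a tested event in both tables, as did 3 of 6 epithelial markers in RS2 and 4 of 6 in RS3, 4 of 5 smooth muscle markers in each and 2 of 4 pluripotency markers in each, which shows only that reads of these genes were present. The targeted genes SMAD3 and SRSF11 had 0 called events among 3 and 3 in RS3 and among 3 and 8 in RS2, against 0.967% of all RS3 and 0.0712% of all RS2 events, so these counts say nothing particular of either gene.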

How the data were processed

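Per the submitters' processing notes, reads were aligned to hg19 with STAR and checked with FastQC. The sources used here do not name the program that called the events. For each event the authors deposited the difference between 2 inclusion levels, from -1 to 1, and its p-value and FDR. The sign was read as RS2 or RS3 minus the comparator, following the order in the comparisons' names. The 4 inclusion-level columns of single libraries were not used, since no label ties them to a sample. Depth is unknown, so no interval is given.

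FDR values were kept over each whole table, and the calling step was tested on simulated data. The changed and unchanged simulated events were set far apart, so that test checks the code and not the calls reported. Exons were matched on gene, strand, start and end, with the row of smallest p-value standing for an exon in side-by-side values. That row was chosen for RS2 and RS3 separately and flanking exons were not matched. Values set side by side may therefore come from different splicing contexts. Of the 31 exons, 30 matched a GENCODE release 29 exon by length and spacing within the gene, and no coordinate was converted. Planned protein comparisons were not made. Python 3.11.15 and pandas 2.3.3 were used.

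Named were each gene's called events, its largest difference and its smallest p-value per table, plus up to 3 called list genes per direction. The TPM1 126-base pair and the remaining exons of these genes, given so that each is accounted for, were added after their values were seen. One gene that meets the rule is not reported here. The genes and lists were chosen with earlier results of these data known.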

Additional observations from a re-analysis of the deposited data

Results flagged for a closer look

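In 5 exons the rows with the smallest p-value lay on opposite sides of the comparator in RS3 and RS2, with an FDR under 0.05 in at least 1 table. The difference between RS3 and RS2 was not tested for any of them. Only the upstream 76-base exon of TPM1 passed the FDR limit in RS2, so the RS2 sign of the others is not established. The exons of a TPM1 pair are not independent measurements. The RS3 and RS2 rows of an exon may also differ in splicing context, since flanking exons were not matched. In the authors' deposited table, the upstream 76-base exon of TPM1 stood at -0.099 in RS3 and 0.047 in RS2, and passed the FDR limit in both. The downstream 76-base exon of TPM1 stood at 0.115 in RS3 and -0.021 in RS2 in the authors' deposited table. The upstream 126-base exon of TPM1 stood at 0.01 in RS3 and -0.004 in RS2, and the downstream one at -0.021 in RS3 and 0.006 in RS2, in the authors' deposited table. The 78-base exon of CALD1 stood at 0.031 in RS3 and -0.005 in RS2 in the authors' deposited table. For the downstream 76-base exon of TPM1 and for CALD1, another RS2 row has the sign of RS3 (0.096 and 0.057 in the authors' deposited table). For the upstream 126-base exon of TPM1, the other RS3 row has the sign of RS2 and is the larger one (-0.040, p = 0.00793, in the authors' deposited table). For the upstream 76-base exon of TPM1, the other RS3 row also has the sign of RS2 but is near 0 (0.001 in the authors' deposited table).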

How the results depend on the processing

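The 1 called RS3 event of the 5 genes has a deposited p-value and FDR listed as 0. An FDR limit of 0.01 or 0.1 or a new Benjamini-Hochberg adjustment therefore could not have removed the call. Counting exons could not either, since 1 called row is 1 called exon. Only the limits on size could change it. The RS3 count was 2 with a minimum difference of 0.05, 5 with no minimum, 5 with a minimum of 0.1 and no FDR limit, and 0 with a minimum of 0.2 at either FDR limit. The RS2 count was 1 with no minimum difference and 0 under the other 8 alternatives. The largest RS2 difference of the 5 genes was 0.096, so every alternative that kept a minimum of 0.1 or 0.2 could only give 0. Over all RS3 events, 411 were called, against 261 with an FDR under 0.01, 699 with no minimum difference, 189 with a minimum of 0.2, 123 with both stricter limits and 8996 with no FDR limit. Over all RS2 events, 29 were called, against 19, 67, 11, 7 and 7834 under the same alternatives. With the median over rows, 5 of 15 named values moved by more than 0.01, and with the largest row 2 of 15 did. A value from an exon with a single row could not move. Among the named exons, only the TPM1 76-base pair and the CALD1 78-base exon had several rows, so all the moves lay there. The RS3 value of the TPM1 downstream 76-base exon was 0.0585 and that of the upstream exon -0.049 as medians, since each has 2 rows there and the other row is near 0. No paired analysis was possible because each group has 1 library. Depth and replicate spread are unknown and the rows' flanking exons were not used, which limits every value given.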
